A study of Mus musculus with 11 samples.

Results

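The tumour suppressor *Trp53*, its family member *Trp73* and 6 genes whose proteins act directly on TRP53 (*Mdm2*, *Mdm4*, *Ppm1d*, *Usp7*, *Rchy1* and *Ppp1r13l*) were followed at the RNA level in thymocytes, the T cells that mature in the thymus. These 8 genes, of 54418 in the table, were listed by name from their known roles, and all 8 were found by their mouse gene symbols. RNA-seq was done on thymocytes of 4 wt mice, 4 *Zmat3*-/- mice and 3 *Puma*-/-*p21*-/-*Zmat3*-/- (TKO) mice, all young adults of 8 to 12 weeks on a C57BL/6-WEHI background. The 2 mutant genotypes share the germline loss of *Zmat3*, which encodes an RNA-binding protein induced by TRP53, and TKO mice also lack PUMA (gene *Bbc3*), a killer of cells, and p21 (gene *Cdkn1a*), a brake on cell division. Every allele is a whole-body knockout, *Trp53* itself is intact in all mice, and neither a treatment of these mice nor a sort of the thymocytes into stages is described. The comparisons ask how the loss of ZMAT3, alone or with PUMA and p21, alters RNA levels in these cells.

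TRP53 is a transcription factor that is made all the time and destroyed almost as fast, so that its activity is set mostly at the level of the protein. MDM2 is the ubiquitin ligase that marks TRP53 for destruction, MDM4 is its inactive relative that binds TRP53 and blocks it, and mice that lack either gene die as embryos unless *Trp53* is also removed. *Mdm2*, *Ppm1d* and *Rchy1* are themselves activated by TRP53 in stressed cells, which closes a negative feedback loop, and thymocytes are known for dying readily when TRP53 is activated.

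Because TRP53 binds pairs of a 10-base half-site, RefSeq promoter windows (build GRCm38.p6, 250 bases before to 50 bases after each start) were searched for that half-site by its consensus, which reads the same on both strands. The 8 genes had 11 windows. A half-site was found in 4 of them, 1 each for *Mdm2*, *Trp53*, *Ppm1d* and *Rchy1*, while 8.36% of all 32851 windows of this length held one. No window of the 8 genes held a full site, that is, 2 half-sites at most 13 bases apart, which 0.0731% of all windows did. All 4 matches lie before a start. Those of *Mdm2*, *Trp53* and *Ppm1d* are printed here, 5′ to 3′ on the strand of the gene with the half-site in capitals, because they stand at *Trp53* itself and at genes of the feedback loop. They lie 186, 75 and 132 bases before the start of *Mdm2* (chr10:117710910-117710969, minus strand), *Trp53* (chr11:69580259-69580318, plus strand) and *Ppm1d* (chr11:85311097-85311156, plus strand).
Mdm2: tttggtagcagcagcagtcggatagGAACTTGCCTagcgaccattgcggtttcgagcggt
Trp53: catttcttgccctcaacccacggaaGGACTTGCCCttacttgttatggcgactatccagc
Ppm1d: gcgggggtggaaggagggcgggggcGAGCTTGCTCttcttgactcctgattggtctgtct
All 3 hold the same central CTTG. The match of *Rchy1*, 90 bases before its start, also lies within an exon of a longer transcript and is not printed. The feedback sites known for *Mdm2* lie in its first intron, outside this window, and a match of letters is a description and not a bound site.

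The libraries held 17669715 to 80207003 counts. Levels are given as CPM, a gene's counts relative to all counts of its library after TMM scaling over the 11 mice, and are followed by the edgeR test. *Zmat3* had 9.24, 11.8, 27.6 and 27.8 CPM in wt mice 1 to 4, 5.47 to 7.01 CPM in *Zmat3*-/- and 7.72 to 8.27 CPM in TKO mice, so that all mutant mice lay below every wt mouse but still had counts (log2FC −1.64 and −1.28, adjusted p = 0.0789 and 0.371 by edgeR). In TKO mice *Bbc3* had 12.3 to 16.1 CPM, against 17.3 to 19.4 CPM in wt, and *Cdkn1a* 3.62, 3.59 and 2.33 CPM, just below wt mice 3 and 4 (3.64 and 4.31 CPM) and further below wt mice 1 and 2 (mean of all 4 wt mice 6.40 ± 2.98 CPM, SD; adjusted p = 0.444 for *Cdkn1a* by edgeR). Counts per gene do not show whether the reads fell in the deleted parts. The wt libraries fell into 2 pairs: log2 CPM over the 12961 genes tested in all comparisons correlated at 0.983 between wt mice 1 and 2 and at 0.984 between 3 and 4, but at 0.890 to 0.923 across the pairs. In wt mice 1 and 2, genes with over 8 kb of exons lay at a median of −0.65 and −0.45 on the log2 scale relative to their mean over all mice, and at 0.20 and 0.19 in wt mice 3 and 4. In the 7 mutant mice the same median was 0.065 to 0.23. Genes with under 2 kb of exons showed the reverse, at 0.51 and 0.36 in wt mice 1 and 2 and at −0.22 and −0.26 in wt mice 3 and 4. *Xist* divides the wt mice in the same way (472 and 597 CPM against 1.75 and 2.63), and it also divides *Zmat3*-/- mice 1 and 2 from 3 and 4 and TKO mouse 1 from 2 and 3. Immediate-early genes, which are known to be induced quickly when cells are handled, summed to 358 to 750 CPM in wt but to 1373 to 1742 CPM in the 7 mutant mice. The share of counts from mitochondrial genes ranged from 4.25 to 6.31% over the wt mice, from 6.54 to 14.6% over the *Zmat3*-/- mice and from 3.86 to 9.29% over the TKO mice, so that *Zmat3*-/- and wt mice did not overlap in this share either. All 11 thymocyte markers had over 3 counts in every mouse and summed to 12467 to 15822 CPM. The 8 myeloid markers summed to 117 to 290 CPM over the 11 mice, the 5 B cell markers to 47.0 to 105 CPM and the 8 markers of thymic stroma to 158 to 212 CPM, with overlapping ranges in the 3 genotypes. The 5 erythroid markers ranged from 611 to 6113 CPM in wt, 879 to 4361 CPM in *Zmat3*-/- and 2092 to 2834 CPM in TKO mice. The part of these markers, of the immediate-early genes and of the mitochondrial share in the results was not tested. As the RNA is from bulk cells, fewer cells of a type and less RNA per cell cannot be told apart.

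Per kilobase of exon, the deubiquitinase gene *Usp7* had the highest level of the 8 genes, at 57.3 ± 8.13 CPM per kb (SD, n = 11 mice). *Mdm4* followed with 36.1 ± 9.18, *Trp53* with 29.7 ± 2.73 and *Mdm2* with 26.1 ± 2.07 CPM per kb. Within a library *Usp7* was above *Mdm4* in 11 of 11 mice, although their ranges over the mice overlapped. *Mdm4* was above *Trp53* in 9 of 11 mice and *Trp53* above *Mdm2* in 9 of 11, and with overlapping ranges the order of these 3 is not fixed beyond the spread. *Rchy1* had 16.9 ± 2.52 and *Ppm1d* 11.8 ± 0.963 CPM per kb, and both lay below every value of *Mdm2*. All 6 stood between the 67.3rd and the 94.5th percentile of tested genes, whereas *Ppp1r13l* (0.534 ± 0.123 CPM per kb) stood at the 6.92nd. *Trp73* was at the limit of detection. The exons of *Mdm4* add up to 14.8 kb over all its annotated transcripts, more than for any of the other 7 genes (3.17 to 7.77 kb), and which of these transcripts were used was not measured.

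**Figure D1:**
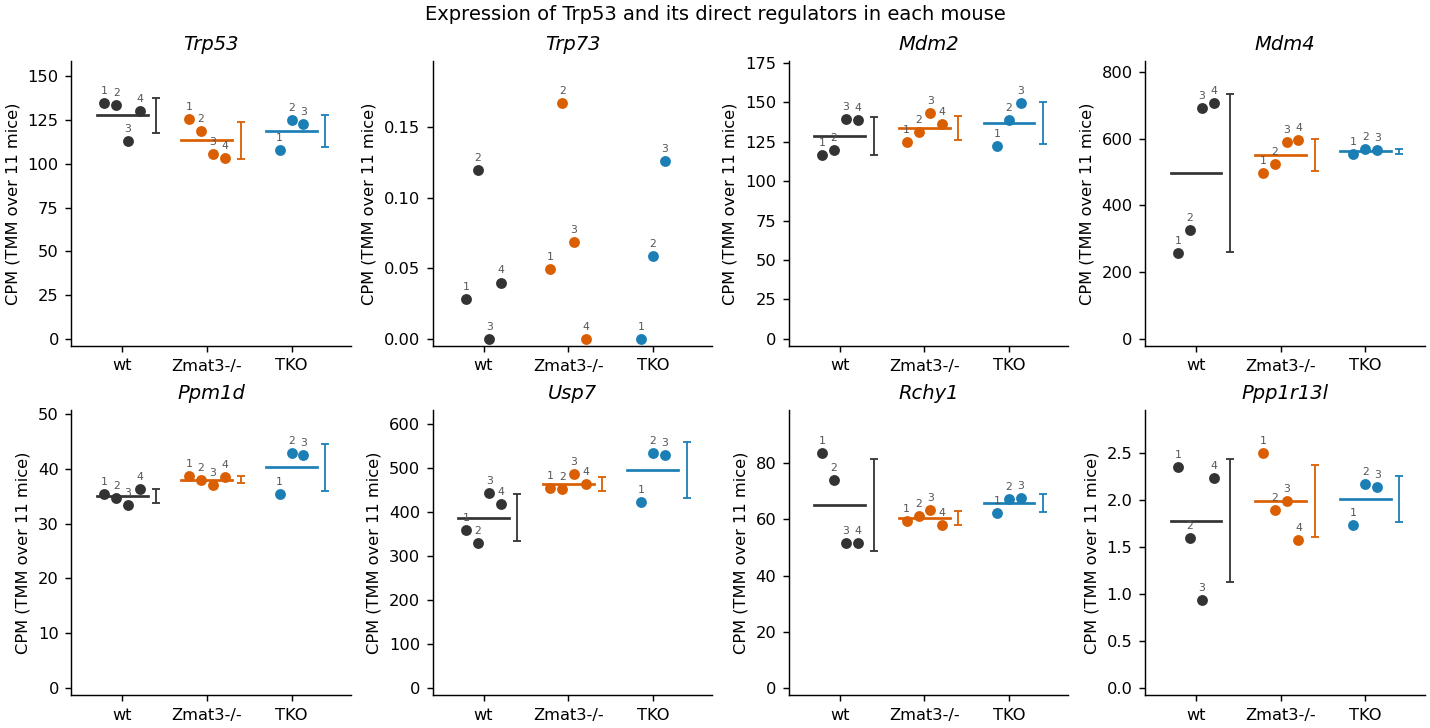
Level of each of the 8 genes in every mouse, in CPM after TMM scaling over 11 mice (vertical axis, from 0), by genotype. Points are mice with their replicate numbers, horizontal lines are group means and the bars beside them are 1 SD; *Trp73*, with at most 10 counts in a library, has points only. *Mdm4* runs from 258 to 706 CPM in wt mice and from 499 to 595 CPM in the 7 mutant mice.

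*Trp53* (ENSMUSG00000059552.13, GRCm38 chr11:69580359-69591873, plus strand) did not pass the test in any comparison, and the 3 genotypes overlapped in its RNA level. Wt mice 1 to 4 had 135, 133, 113 and 130 CPM, *Zmat3*-/- mice 125, 119, 106 and 104 CPM, and TKO mice 108, 125 and 123 CPM. All 7 mutant mice lay below the wt mean of 128 CPM, but the groups overlapped, because wt mouse 3 was lower than *Zmat3*-/- mice 1 and 2 and TKO mice 2 and 3. In each of the 4 pairs of wt and *Zmat3*-/- mice with the same replicate number, the *Zmat3*-/- mouse had the lower level. By edgeR, *Zmat3*-/- mice differed from wt mice by a log2FC of −0.23 (standard error 0.110, 95% interval −0.48 to 0.018, adjusted p = 0.345), and a block for the replicate number left it at −0.23 (standard error 0.0988, adjusted p = 0.340). TKO mice differed from wt mice by −0.17 (standard error 0.136, 95% interval −0.49 to 0.14, adjusted p = 0.652). TKO mice differed from *Zmat3*-/- mice by 0.056 (95% interval −0.13 to 0.24, adjusted p = 0.982), with 0.020 to 0.11 when each mouse was left out (lowest without TKO mouse 2, highest without *Zmat3*-/- mouse 1). With 1 surrogate variable in the fit, the difference between *Zmat3*-/- and wt mice passed the adjusted threshold at −0.20 (adjusted p = 0.0187 by edgeR), and so did 37.7% of all genes tested in that fit. In fits without a wt pair, chosen after the split of the wt libraries was seen, the log2FC of *Zmat3*-/- against wt mice was −0.35 without wt mice 3 and 4 (adjusted p = 0.00765) and −0.12 without wt mice 1 and 2 (adjusted p = 0.323). The adjusted threshold was passed by 56.1% and 33.0% of all genes there. For TKO against wt mice these fits gave −0.28 (adjusted p = 0.0687) and −0.057 (adjusted p = 0.750), and leaving out TKO mouse 1 gave −0.090. The processed pseudogene *Trp53-ps*, which holds 8.79% of the 31-base words of *Trp53*, had 0 counts in all mice.

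*Mdm2* (ENSMUSG00000020184.15, chr10:117688875-117710758, minus strand) differed between the genotypes by less than its spread. Its levels were 117, 120, 140 and 139 CPM in wt, 125, 131, 143 and 136 CPM in *Zmat3*-/- and 122, 139 and 149 CPM in TKO mice. The 3 groups overlapped widely, and in wt the 2 lower values are again those of mice 1 and 2. The log2FC was 0.0028 in *Zmat3*-/- against wt (95% interval −0.21 to 0.21, adjusted p = 0.990 by edgeR), 0.026 in TKO against wt (interval −0.26 to 0.31, adjusted p = 0.939) and 0.022 in TKO against *Zmat3*-/- mice (interval −0.15 to 0.19, adjusted p = 0.986). A change of more than 1.24-fold in either direction thus lies outside all 3 intervals, and the sign of such small values turns with the processing.

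The ratio of 2 genes within a library does not depend on how libraries are scaled, and *Mdm2* over *Trp53* sets the RNA of the ligase against that of its substrate. Its log2 was −0.20, −0.16, 0.30 and 0.095 in wt mice, −0.0045, 0.14, 0.43 and 0.40 in *Zmat3*-/- and 0.18, 0.15 and 0.28 in TKO mice. In CPM, 6 of the 7 mutant mice thus had more *Mdm2* than *Trp53*, but so did wt mice 3 and 4, and the groups overlapped. Between same-numbered mice the ratio was higher in the *Zmat3*-/- than in the wt mouse in 4 of 4 pairs (exact sign permutation p = 0.125, the smallest that 4 pairs allow). The mean difference from wt was 0.23 in *Zmat3*-/- (two-sided exact permutation test, p = 0.200) and 0.19 in TKO mice (permutation p = 0.286). It rested on the wt pair used: without wt mice 1 and 2 it was 0.042 and 0.0043. Without wt mice 3 and 4 it was 0.42 (exact permutation p = 0.133) and 0.38 (exact permutation p = 0.100, the smallest that 3 against 2 allow), and neither mutant overlapped with the remaining wt mice. TKO and wt mice also did not overlap without wt mouse 3 alone, at 0.29 (exact permutation p = 0.100, the smallest that 3 against 3 allow). TKO and *Zmat3*-/- mice differed by −0.038 (permutation p = 0.829). The smallest p these designs allow is 0.0286, and none of the 6 tests on this ratio and on that of *Mdm4* to *Mdm2* reached 0.05.

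*Mdm4* (ENSMUSG00000054387.13, chr1:132959484-133030561, minus strand) had the widest spread of the 6 better-expressed genes, and the spread lay among the wt mice. Wt mice 1 to 4 had 258, 327, 693 and 706 CPM, a 2.73-fold range. *Zmat3*-/- mice had 499, 525, 591 and 595 CPM and TKO mice 554, 568 and 566 CPM, so every mutant mouse lay between the 2 wt pairs. The coefficient of variation was 47.7% in wt (84.5th percentile of tested genes), 8.70% in *Zmat3*-/- (53.3rd) and 1.40% in TKO mice (1.17th percentile), beside a median over genes of 24.9%, 8.14% and 11.7%. The log2FC was 0.12 in *Zmat3*-/- (standard error 0.306, 95% interval −0.58 to 0.81, adjusted p = 0.865 by edgeR) and 0.14 in TKO against wt mice (standard error 0.344, interval −0.66 to 0.94, adjusted p = 0.882). These values rest on which wt mice are used. Leaving out wt mouse 1 or 2 alone gave −0.085 and −0.038 in *Zmat3*-/- and −0.062 and −0.012 in TKO mice, and leaving out wt mouse 3 or 4 gave 0.31 and 0.32 in *Zmat3*-/- and 0.32 and 0.35 in TKO mice. Against wt mice 3 and 4 alone, *Mdm4* was lower in *Zmat3*-/- mice, with a log2FC of −0.36 (adjusted p = 0.00977 by edgeR). Against wt mice 1 and 2 alone it was higher, at 0.81 (adjusted p = 4.5e-04). In these fits 33.0% and 56.1% of all genes passed the adjusted threshold. In TKO mice the same fits gave −0.33 (adjusted p = 0.0566) and 0.84 (adjusted p = 0.00198), where 8.14% and 43.6% of genes passed. The mutants, in contrast, differed little from each other: TKO against *Zmat3*-/- mice gave a log2FC of 0.019 with an interval of −0.17 to 0.21.

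The 2 low wt libraries are those in which long genes as a class were low. On the log2 scale *Mdm4* lay 1.00 and 0.65 below its mean over the 11 mice in wt mice 1 and 2 and 0.43 and 0.45 above it in wt mice 3 and 4. An offset for exon length in 20 classes, also chosen after the data were seen, turned its log2FC to −0.093 (*Zmat3*-/- against wt) and −0.088 (TKO against wt). The split by *Xist* was also present in *Zmat3*-/- mice, where the pair with *Xist* had 499 and 525 CPM of *Mdm4* and the pair without it 591 and 595 CPM, a smaller gap in the same direction. The median of the long genes followed *Xist* in these mice as well (0.065 and 0.080 against 0.14 and 0.12), so that in wt and in *Zmat3*-/- mice *Xist* and the long genes cannot be told apart. In TKO mice they did not go together: mouse 1, with 1525 CPM of *Xist*, and mouse 2, with 2.24 CPM, had a median of long genes of 0.073 and 0.072, mouse 3 had 0.23, and *Mdm4* varied little. *Mdm4-ps*, a pseudogene that holds 13.1% of the 31-base words of *Mdm4*, had at most 3 counts in any library.

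**Figure D2:**
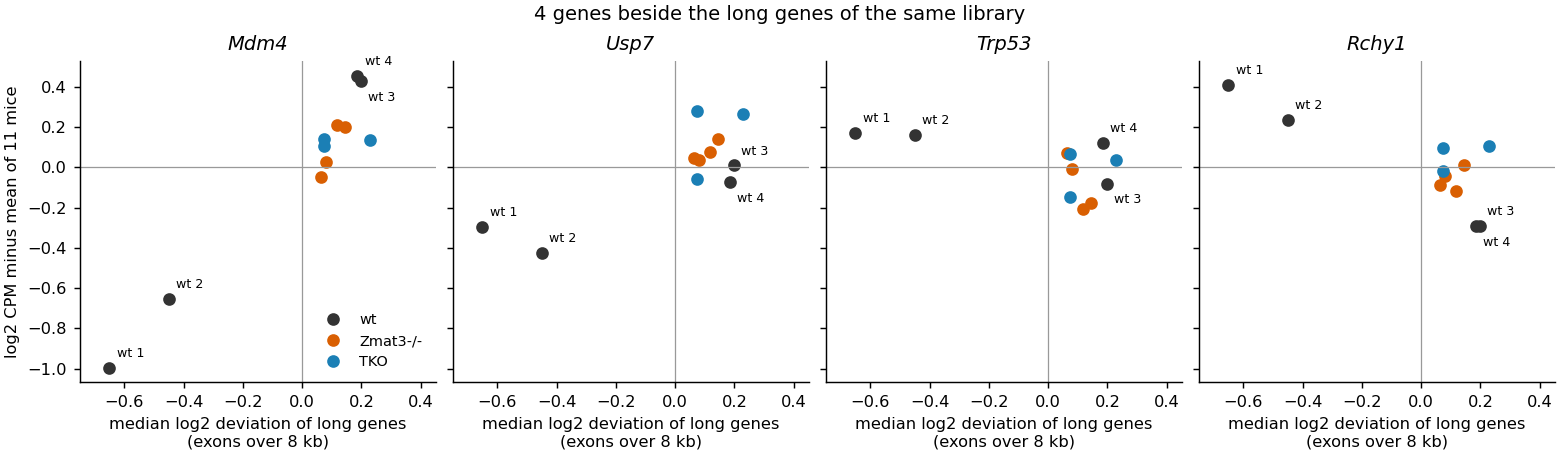
Log2 CPM of *Mdm4*, *Usp7*, *Trp53* and *Rchy1* minus the gene's mean over 11 mice (vertical axis) against the median of the same measure over genes with more than 8 kb of exons (horizontal axis), one point a mouse. Wt mice 1 and 2 lie alone on the left, where *Mdm4* and *Usp7* are low and *Rchy1* is high.

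Within a library, MDM4 and MDM2 work as a pair, and the log2 ratio of *Mdm4* to *Mdm2* was 1.14, 1.45, 2.31 and 2.35 in wt mice. It was 2.00, 2.00, 2.05 and 2.12 in *Zmat3*-/- and 2.18, 2.03 and 1.92 in TKO mice, so that all mutant libraries again lay between the wt pairs. The difference from wt was 0.23 for both mutants (two-sided exact permutation test, p = 0.457 for *Zmat3*-/- and p = 0.486 for TKO mice). It was −0.29 and −0.28 without wt mice 1 and 2, and 0.74 and 0.75 without wt mice 3 and 4. TKO and *Zmat3*-/- mice differed by 0.0024 (permutation p = 1). The spread of this ratio was 0.61 (SD) in wt against 0.060 in *Zmat3*-/- and 0.13 in TKO mice.

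**Figure D3:**
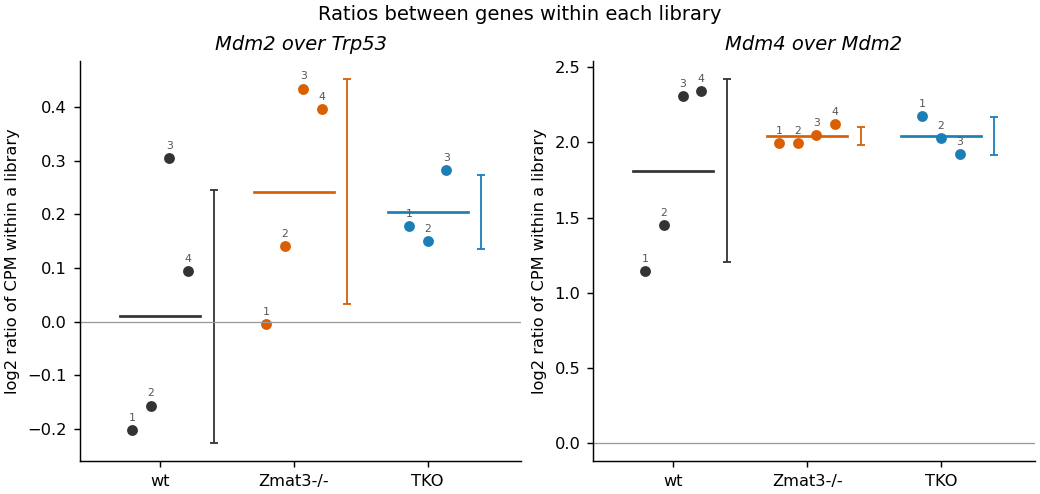
Log2 ratio of CPM within each library, for *Mdm2* over *Trp53* (left) and *Mdm4* over *Mdm2* (right), by genotype. Points are mice with their replicate numbers, horizontal lines are means and bars are 1 SD; for *Mdm4* over *Mdm2*, all 7 mutant mice lie between 1.92 and 2.18, between the 2 wt pairs.

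*Usp7* (ENSMUSG00000022710.17, chr16:8689595-8792308, minus strand) encodes the enzyme that removes ubiquitin from both MDM2 and TRP53. Its levels were 359, 328, 444 and 419 CPM in wt, 455, 452, 486 and 464 CPM in *Zmat3*-/- and 423, 535 and 530 CPM in TKO mice. All *Zmat3*-/- mice lay above all wt mice, while TKO mouse 1 lay within the wt range. The log2FC was 0.21 in *Zmat3*-/- (1.16-fold, 95% interval −0.051 to 0.47, adjusted p = 0.407 by edgeR) and 0.30 in TKO against wt mice (1.23-fold, interval −0.074 to 0.67, adjusted p = 0.553). The exact permutation p for *Zmat3*-/- against wt mice was 0.0286, the smallest that 4 against 4 allow; it is 1 of 21 such tests over genes and comparisons and is not adjusted. The 2 groups also did not overlap under median-of-ratios scaling, but did when libraries were scaled by their total counts. With 1 surrogate variable the log2FC was 0.19 (adjusted p = 0.0218), with the offset for exon length it was 0.066 (adjusted p = 0.733), and without wt mouse 2 it was 0.14. In TKO mice the length offset gave 0.16 (adjusted p = 0.644). Without wt mice 3 and 4 the log2FC was 0.32 in *Zmat3*-/- (adjusted p = 0.00949) and 0.42 in TKO mice (adjusted p = 0.0422), and without wt mice 1 and 2 it was 0.087 (adjusted p = 0.310) and 0.18 (adjusted p = 0.337). Of all genes, 37.7% passed the adjusted threshold with 1 surrogate variable in *Zmat3*-/- against wt mice. Without wt mice 3 and 4, 56.1% passed in *Zmat3*-/- and 43.6% in TKO mice.

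*Rchy1* (ENSMUSG00000029397.15, chr5:91948904-91963068, minus strand), which encodes PIRH2, another ubiquitin ligase of TRP53, showed the reverse split. Wt mice 1 to 4 had 83.8, 74.2, 51.6 and 51.4 CPM, *Zmat3*-/- mice 59.3, 61.2, 63.4 and 58.0 CPM and TKO mice 62.2, 67.4 and 67.8 CPM. Every mutant mouse again lay between the 2 wt pairs, this time with wt mice 1 and 2 as the high pair. The log2FC was −0.18 in *Zmat3*-/- (standard error 0.187, adjusted p = 0.655 by edgeR) and −0.064 in TKO against wt mice (standard error 0.223, adjusted p = 0.918). Against wt mice 3 and 4 alone it was 0.21 in *Zmat3*-/- mice (adjusted p = 0.0255) and 0.33 in TKO mice (adjusted p = 0.0565), and against wt mice 1 and 2 alone it was −0.50 (adjusted p = 9.2e-04) and −0.37 (adjusted p = 0.0351). Of all genes, 33.0% and 8.14% passed the adjusted threshold against wt mice 3 and 4 alone, and 56.1% and 43.6% against 1 and 2 alone. Without wt mouse 1 alone the log2FC was −0.0080 for *Zmat3*-/- and 0.11 for TKO mice. With exons of 3.77 kb *Rchy1* is not a short gene by the limit of 2 kb used above. *Rchy1* shares 680 exon bases (18.0%) with *Thap6* on the other strand, and the kit does not mark strand, so reads there cannot be told apart. *Thap6* itself had 8.07 to 10.5 CPM and did not show the split.

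*Ppm1d* (ENSMUSG00000020525.17, chr11:85311244-85347066, plus strand) encodes WIP1, the phosphatase that switches off TRP53 and the kinases that activate it. Of the 7 tested genes it varied least among wt mice, with 35.5, 34.7, 33.4 and 36.4 CPM, a coefficient of variation of 3.64%. *Zmat3*-/- mice had 38.7, 37.9, 37.1 and 38.5 CPM and TKO mice 35.3, 43.0 and 42.6 CPM. All *Zmat3*-/- mice lay just above all wt mice on this scale (exact permutation p = 0.0286), but the groups overlapped with both other scalings, under which the log2 ratio of the means moved from 0.12 to 0.061 (median of ratios) and to −0.043 (total counts). By edgeR the log2FC was 0.063 (1.04-fold, 95% interval −0.12 to 0.25, adjusted p = 0.718), and in TKO against wt mice it was 0.14 (interval −0.15 to 0.43, adjusted p = 0.685). The first value ranged from 0.0064 without wt mice 3 and 4 and 0.028 without wt mouse 3 to 0.10 without wt mice 1 and 2 and 0.12 with the offset for exon length. The second was 0.25 without TKO mouse 1, 0.085 without TKO mouse 2 and 0.23 with the length offset.

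*Ppp1r13l* (ENSMUSG00000040734.14, chr7:19359749-19378533, plus strand) encodes iASPP, an inhibitor of TRP53, and was counted at a low level, with 22 to 170 counts in a library. Levels were 2.36, 1.60, 0.941 and 2.23 CPM in wt, 2.51, 1.90, 1.99 and 1.57 CPM in *Zmat3*-/- and 1.73, 2.18 and 2.14 CPM in TKO mice. The groups overlapped, and at this depth the intervals were the widest of the 7 genes tested: the log2FC was 0.092 in *Zmat3*-/- (interval −0.64 to 0.82, adjusted p = 0.899 by edgeR) and 0.096 in TKO against wt mice (interval −0.78 to 0.97, adjusted p = 0.928). The gene lies 3.04 Mb from the targeted *Bbc3*, on the same chromosome. *Trp73* (ENSMUSG00000029026.17, chr4:154056253-154140208, minus strand), which encodes a transcription factor with a DNA-binding domain like that of TRP53, had 1, 5, 0 and 1 counts in wt, 2, 5, 2 and 0 counts in *Zmat3*-/- and 0, 1 and 10 counts in TKO mice. The 3 libraries at 0 allow up to 0.128 CPM (wt mouse 3), 0.127 CPM (*Zmat3*-/- mouse 4) and 0.0776 CPM (TKO mouse 1), counting error only. It did not pass the filter on low counts, and no difference was detectable at this depth.

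As a set, none of the 7 genes tested met the study's thresholds for differential expression (adjusted p under 0.05 and absolute log2FC above 1.5) in any comparison, by edgeR or by DESeq2. The share of all genes called by edgeR was 0.319% in *Zmat3*-/- against wt, 0.241% in TKO against wt and 0.122% in TKO against *Zmat3*-/- mice, and by DESeq2 it was 0.905%, 0.776% and 0.145%; the 0 of 7 stands beside these low shares. Nor did any of the 7 reach an unadjusted p of 0.05, which 16.1%, 10.3% and 4.50% of all genes did. In *Zmat3*-/- against wt mice, 2 of 7 did not overlap between groups (*Usp7* and *Ppm1d*, both higher), beside 14.3% of all genes (9.15% higher), and in the other 2 comparisons 0 of 7 did not overlap, beside 13.7% and 5.49%. Under total counts *Rchy1* did not overlap between TKO and *Zmat3*-/- mice either, with a log2 ratio of the means of 0.19. In both comparisons with wt, which share the wt mice, *Trp53* and *Rchy1* had negative and the other 5 positive log2FC. These signs are not stable for the small values. Scaled by total counts, the ratio of the means of *Zmat3*-/- to wt mice was positive for *Usp7* (0.095 on the log2 scale) and negative for the other 6, with the median of all genes at −0.13 against 0.032 under TMM, and in TKO mice 4 of 7 were positive. Relative to that median *Trp53* and *Rchy1* were again the lower ones. *Mdm2*, *Mdm4*, *Rchy1* and *Ppp1r13l* also turned sign in at least 1 alternative fit of each comparison with wt. The median log2FC was 0.063, 0.096 and 0.056 in the order above, beside −0.026, −0.038 and −0.0082 over all genes tested.

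In all 3 comparisons the 95% interval of each of the 7 genes lay within 1 unit of log2FC on either side of 0, and the outermost bounds were 0.581-fold and 1.96-fold (both *Ppp1r13l* in TKO against wt mice). Between TKO and *Zmat3*-/- mice, where the wt libraries play no part, the bounds of the 6 better-expressed genes lay between −0.17 and 0.28. *Rchy1* came closest to a difference there, with TKO mice at 62.2 to 67.8 and *Zmat3*-/- mice at 58.0 to 63.4 CPM (log2FC 0.11, interval −0.027 to 0.25, adjusted p = 0.982 by edgeR).

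**Figure D4:**
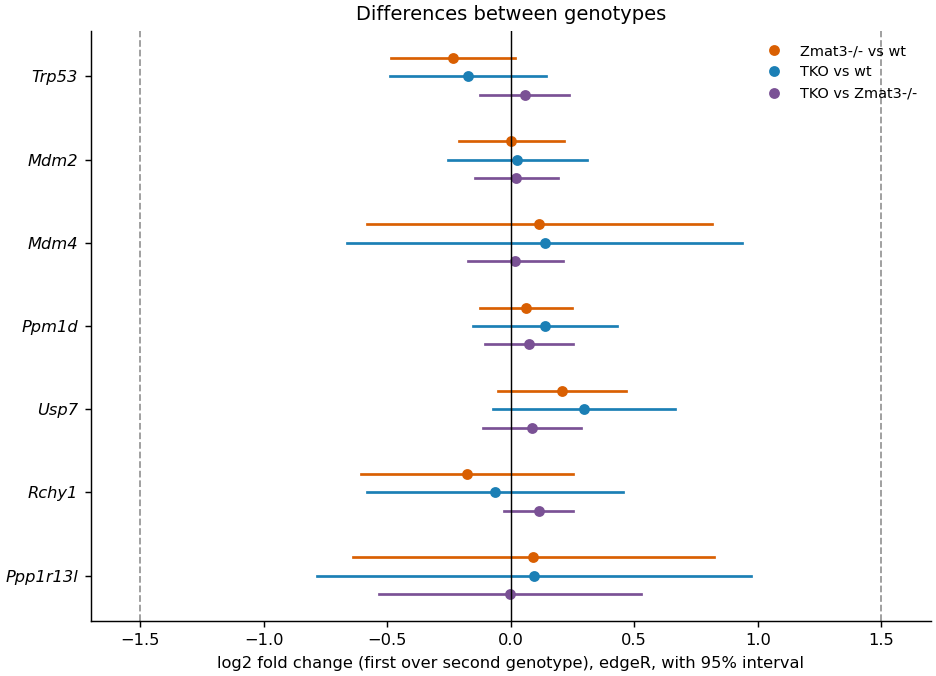
Log2 fold change of the 7 tested genes (horizontal axis, edgeR, first over second genotype) with 95% intervals, for the 3 comparisons. Dashed lines mark the study's threshold of 1.5 on either side; no interval reaches it, and those of *Mdm4* and *Ppp1r13l* against wt mice are the widest.

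Beyond these genes, 49 other regulators of TRP53, MDM2 or MDM4 were listed by function, and 48 were tested; the one that was not is *Cdkn2a*, which encodes the MDM2 inhibitor p19ARF and had a mean level of at most 0.356 CPM in each genotype. In *Zmat3*-/- against wt mice, 29 of the 48 had positive and 19 negative log2FC, with a median of 0.11. In TKO against wt mice, 31 were positive and 17 negative, with a median of 0.082, and in TKO against *Zmat3*-/- mice 32 were positive and 16 negative, with a median of 0.046. None passed an adjusted p of 0.05 in any comparison (0.764%, 0.294% and 0.221% of all genes did). Against 1 wt pair many did, as did many of all genes. In *Zmat3*-/- mice 21 of 48 passed without wt mice 1 and 2 (33.0% of all genes) and 33 without wt mice 3 and 4 (56.1%), and in TKO mice 5 (8.14%) and 27 (43.6%). An unadjusted p of 0.05 was reached by 6, 6 and 1 of the 48, beside 16.1%, 10.3% and 4.50% of all genes. The groups did not overlap for 8, 6 and 1 of the 48, beside 14.3%, 13.7% and 5.49% of all genes.

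By class, 8 of 10 kinases of TRP53, MDM2 or MDM4 had positive log2FC in *Zmat3*-/- and 9 of 10 in TKO against wt mice, with medians of 0.16 and 0.20. Like *Mdm4*, the class rested on the wt pair used: without wt mice 1 and 2, 5 and 4 of the 10 were positive (medians −0.11 and −0.10), and without wt mice 3 and 4, 9 and 10 were (medians 0.36 and 0.50). *Hipk2*, a kinase that phosphorylates TRP53 during apoptosis, had the largest value of the list, 0.82 and 0.77 (adjusted p = 0.536 and 0.683 by edgeR), but its groups overlapped, with 2.25 to 16.0 CPM in wt and 13.8 to 17.9 CPM in the mutants. Without wt mice 1 and 2 its log2FC was 0.023 and −0.025, and without wt mice 3 and 4 it was 2.67 and 2.62. *Mapk14*, which encodes the stress kinase p38α, had a log2FC of 0.32 and 0.46 (unadjusted p = 0.00833 and 0.0104, adjusted p = 0.1503 and 0.358 by edgeR), with 0.21 and 0.35 without wt mice 1 and 2 and 0.43 and 0.58 without 3 and 4. Among the ubiquitin ligases, *Topors* (log2FC 0.61 and 0.66, adjusted p = 0.106 and 0.301) had higher levels in every mutant mouse than in any wt mouse, at 85.5 to 99.2 CPM against 40.4 to 70.5 CPM in wt, and its log2FC was positive without either wt pair (0.39 and 0.44 without wt mice 1 and 2, 0.86 and 0.92 without 3 and 4), with an adjusted p of 0.00311, 0.0376, 1.1e-04 and 0.00120 by edgeR in these 4 fits. *Stub1*, which encodes the chaperone-linked ligase CHIP, had the lowest log2FC, −0.63 and −0.68 (adjusted p = 0.229 and 0.458), with overlapping groups, with −0.14 and −0.18 without wt mice 1 and 2 (adjusted p = 0.147 and 0.325) and −1.01 and −1.04 without 3 and 4 (adjusted p = 7.5e-05 and 0.00105). *Kat5*, which encodes the acetyltransferase TIP60, had 49.4 to 57.8 CPM in wt, 40.2 to 46.5 CPM in *Zmat3*-/- and 32.8 to 44.2 CPM in TKO mice. Neither mutant overlapped with wt (log2FC −0.42 and −0.53, adjusted p = 0.0970 and 0.314 by edgeR), while the mutants overlapped with each other. Its log2FC against wt was −0.32 and −0.42 without wt mice 1 and 2 (adjusted p = 0.0129 and 0.0846) and −0.54 and −0.63 without 3 and 4 (adjusted p = 4.9e-04 and 0.00754). The other genes under an unadjusted p of 0.05 against wt, named like *Mapk14* after their values were seen, were *Syvn1* (log2FC −0.18) and *Kat8* (−0.21) in *Zmat3*-/- and *Ppp1r13b* (0.46) and *Sirt1* (0.33) in TKO mice. In *Zmat3*-/- mice *Syvn1* was −0.16 and *Kat8* −0.14 without wt mice 1 and 2, and −0.21 and −0.30 without 3 and 4. In TKO mice *Ppp1r13b* was 0.30 and *Sirt1* 0.20 without wt mice 1 and 2, and 0.63 and 0.47 without 3 and 4. The 5 deubiquitinases (median 0.014 and 0.064) and the 6 nucleolar and ribosomal inhibitors of MDM2 (median −0.024 and −0.083) had medians near 0, and both classes turned with the wt pair. Of the deubiquitinases, 0 and 1 of 5 were positive without wt mice 1 and 2 (medians −0.16 and −0.072) and 3 and 5 without wt mice 3 and 4 (medians 0.035 and 0.14). Of the inhibitors of MDM2, all 6 had positive log2FC without wt mice 1 and 2 (medians 0.66 and 0.54) and all 6 negative ones without wt mice 3 and 4 (medians −0.44 and −0.54).

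Between TKO and *Zmat3*-/- mice the log2FC of the list covered a narrower range, from −0.22 (*Rps7*) and −0.17 (*Rpl11*), ribosomal proteins that bind MDM2, to 0.15 (*Syvn1*) and 0.26 (*Ppp1r13b*). *Ppp1r13b*, which encodes the TRP53 activator ASPP1 and is a relative of *Ppp1r13l*, was the one gene of the 48 with an unadjusted p under 0.05 there. It had 53.3 to 57.7 CPM in *Zmat3*-/- and 54.4 to 76.1 CPM in TKO mice (standard error 0.0999, adjusted p = 0.982), and the groups overlapped.

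**Figure D5:**
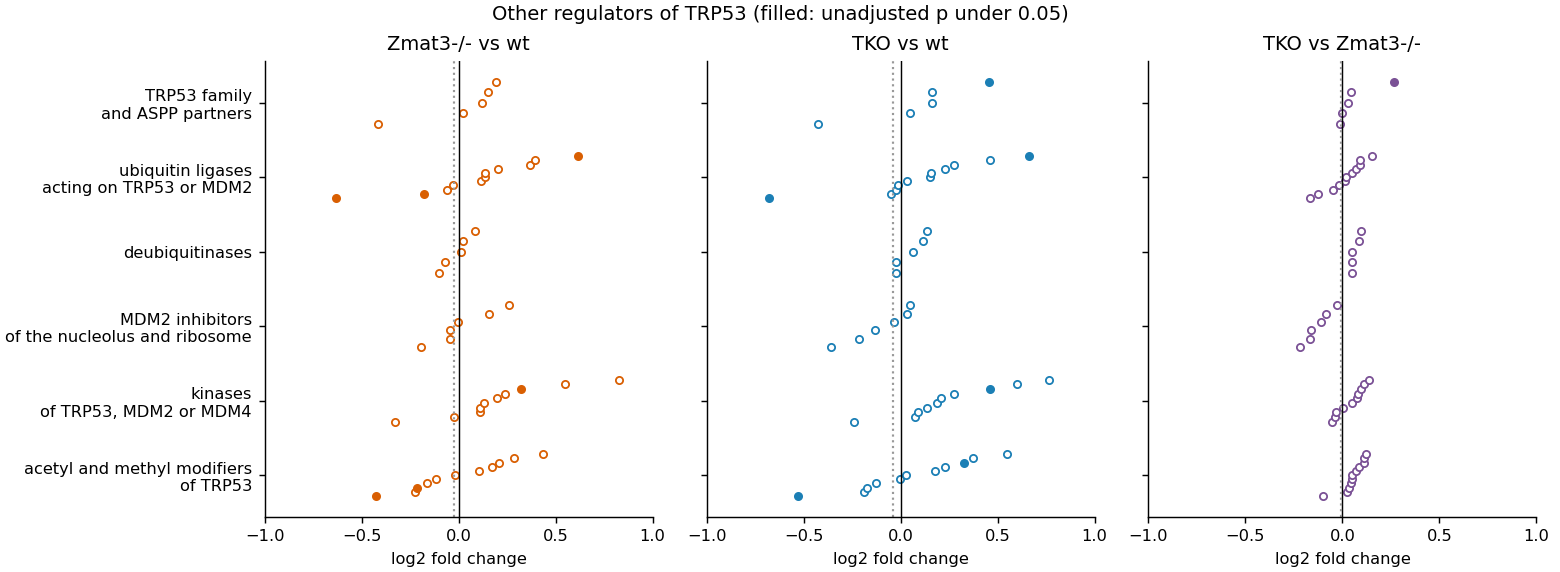
Log2 fold change (horizontal axis, edgeR) of the 48 tested regulators of TRP53 beyond the 8 genes, by class, in the 3 comparisons; one circle a gene, filled where the unadjusted p was under 0.05, and a dotted line at the median of all tested genes. The values spread from −0.68 to 0.82 in the comparisons with wt and from −0.22 to 0.26 between TKO and *Zmat3*-/- mice.

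The genes whose log2 CPM over the 11 mice, scaled to a mean of 0 and an SD of 1, lay closest to *Trp53* among 12960 others were *S1pr1*, *Elavl1* and *Car15*, at a root-mean-square difference of 0.422, 0.439 and 0.451 (median over genes 1.47). For *Mdm2* they were *Prx*, *Xk* and *Mmgt1*, at 0.300, 0.369 and 0.381 (median 1.35). For *Mdm4*, added after its values were seen, they were *Prpf4b*, *Nfat5* and *Zfp738*, at 0.0737, 0.0760 and 0.0884 (median 1.32). These 3 genes have 8.43, 18.4 and 15.1 kb of exons.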

How the data were processed

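The authors quantified paired-end reads with Salmon in nf-core/rnaseq (GRCm38.p6, GENCODE vM25) and deposited estimated counts per gene and mouse, unnormalized and in whole numbers. The libraries were not strand marked, and RNA quality can alter how fully long genes are counted. Names and positions came from GENCODE M21 (54166 of 54418 genes matched). Genotypes were taken from the labels and compared pairwise with edgeR 4.0.16 (R 4.3.3): TMM, quasi-likelihood F-test, two-sided, Benjamini-Hochberg over all genes tested. A gene was tested if it had 20 counts (at the depth of the smallest library) in a number of mice equal to the smaller group, and 1628 genes of classes that the study removed (among them ribosomal RNA, *Xist* and genes on chromosome Y) were dropped. CPM and log2 CPM (prior count 2) used TMM over the 11 mice, whereas each fit rescaled its own mice, so that a log2FC can differ slightly from the ratio of the CPM given. The standard error is the absolute log2FC over the square root of F, and p-values are from edgeR unless named as permutation p-values, which are two-sided, exact and on absolute differences of means (SciPy). Sex and surrogate variables, used by the study with DESeq2, entered as alternatives (DESeq2 1.42.0, sva 3.50.0): no label states the sex, and the level of *Xist* stood in for it. The scripts were tested on simulated data.

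Named were the 8 genes, the targeted genes, the 2 listed regulators with the largest rise and fall in each comparison and the 3 most alike genes; the other regulators with an unadjusted p under 0.05 and *Cdkn2a* were named after their values were seen. The genes, lists and tests were chosen with earlier results of these data known. The replicate numbers of the labels may pair mice: over genes, the deviations from the group mean of *Zmat3*-/- mice and of the wt mice with their number correlated at 0.365, 0.125, 0.264 and 0.317, all above 0.1, so a fit with the number as a block was read as paired. Mice of different numbers, both from 1 and 2 or both from 3 and 4, also correlated (0.160 to 0.401), whereas mice 1 and 2 correlated with mice 3 and 4 at −0.410 to −0.154, so that the pairing is not particular to the number. The labels do not say what a number stands for.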

Additional observations from a re-analysis of the deposited data

How the results depend on the processing

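No alternative brought any of the 7 genes past both thresholds: the count called was 0 under all 50. Of 350 alternative log2FC, 292 kept direction and side of the adjusted threshold, 49 turned sign and 9 passed the adjusted threshold; all 9 came from 1 surrogate variable (*Trp53* and *Usp7*) or from leaving out wt mice 3 and 4. Of those that turned sign, *Mdm4* and *Rchy1* in *Zmat3*-/- mice passed it too without wt mice 1 and 2. The offset for exon length and the fits without a wt pair were chosen after seeing the data.

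In *Zmat3*-/- against wt mice, the log2FC of *Mdm2* was −0.0017 without the filter, −0.0044 with all genotypes in one fit, −0.013 with a surrogate variable, −0.042 with the length offset and −0.077 without wt mice 1 and 2 (−0.032 to 0.043 with each mouse left out). *Mdm4* was −0.093 with the length offset and −0.36 without wt mice 1 and 2 (−0.085 to 0.32), *Rchy1* 0.21 without wt mice 1 and 2, and *Ppp1r13l* −0.094 without wt mice 3 and 4 (−0.12 to 0.29). In TKO against wt mice, the length offset gave −0.0078 for *Mdm2*, −0.088 for *Mdm4* and 0.044 for *Rchy1*, and the fit without wt mice 1 and 2 gave −0.046, −0.33 and 0.33. *Rchy1* was 0.11 with a surrogate variable and 0.031 with the *Xist* level, and *Ppp1r13l* −0.086 without wt mice 3 and 4. Leaving out each mouse gave −0.020 to 0.12 for *Mdm2*, −0.062 to 0.35 for *Mdm4*, −0.18 to 0.11 for *Rchy1* and −0.12 to 0.29 for *Ppp1r13l*.

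In TKO against *Zmat3*-/- mice, *Mdm2* was −0.0087 with a surrogate variable and −4.7e-04 with the *Xist* level (−0.015 to 0.084 with each mouse left out), and *Mdm4* −0.0030 with the length offset (−0.024 to 0.071). *Ppp1r13l* was 0.0013 with RLE, 0.014 without the filter, 0.011 with all genotypes, 0.018 with a surrogate variable, 0.012 with the *Xist* level and 0.012 with the length offset (−0.084 to 0.13). The log2 ratio of *Mdm4* to *Mdm2* was −0.29 and −0.28 (*Zmat3*-/- and TKO against wt) without wt mice 1 and 2, and −0.065 to 0.063 between the mutants with each mouse left out. *Mdm2* over *Trp53* between the mutants was −0.12 to 0.026 with each mouse left out. The cause of these turns was not tested.

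With the replicate number as a block, no call changed; *Mdm4* was 0.23 in *Zmat3*-/- against wt mice, and *Mdm2* over *Trp53* 0.23 (exact sign permutation p = 0.125, the smallest 4 pairs allow). *Mdm2* over *Trp53* between the mutants was 0.014 in pairs, and *Mdm4* was 0.46 in TKO against wt mice, where wt mouse 4 has no partner. Same-numbered mice correlated at 0.0667, 0.335 and 0.417 (TKO and wt) and at 0.186, 0.0290 and 0.185 (TKO and *Zmat3*-/-). As 0.0667 and 0.0290 are under the 0.1 used above, the number was not read as pairing these mice. The values 0.335 and 0.417 are nevertheless as high as those of *Zmat3*-/- and wt mice (0.125 to 0.365).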
